A study of Homo sapiens with 7 samples.

Results

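Binding sites of a transcription factor are scattered unevenly along chromosomes, and HNF6 regions on day 10 of pancreatic differentiation formed local groups. Densely clustered HNF6 regions were chosen by 1 rule: a region belonged to them when the midpoints of 3 or more other HNF6 regions of the same list lay within 12.5 kb of its own midpoint. Of 64919 HNF6 regions on day 10, 6240 (9.61%) met the rule. Members less than 12.5 kb apart, edge to edge, were joined, which gave 1874 clusters whose spans summed to 15.1 Mb. Because the members were selected on the positions of the HNF6 regions themselves, their density, the number of regions per cluster and the order of the clusters are descriptions without a test. GATA6, NKX6.1 and day 5 HNF6 regions had no part in the rule.

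The study followed the human embryonic stem cell line CyT49 through directed differentiation toward pancreas and mapped 3 transcription factors by chromatin immunoprecipitation and sequencing (ChIP-seq). HNF6 was mapped at day 5, labelled GTE for gut tube endoderm, and at day 10, labelled PE for pancreatic endoderm, a stage the protocol text also calls pancreatic progenitors. GATA6 was mapped at day 10, and NKX6.1 at day 13, labelled PP for pancreatic progenitors. Of the 7 samples, 4 carried a peak list and 3 were inputs, which were not analysed here. No genotype or drug treatment separates the groups in the labels, and all come from the same cell line. The sample titles of days 5 and 10 name CyT49, and those of day 13 do not. GATA6 was mapped only at day 10 and NKX6.1 only at day 13, so between these lists factor and day cannot be told apart. The antibody recorded for each list is that of its own factor, but the shared protocol text mentions an NKX6.1 antibody for all samples. Each factor and day had 1 library, so differences could not be set against replicate spread and no p-values are given. Intervals are 95% intervals for counting error only, and they treat regions as independent although regions of a cluster share a locus. The chromatin came from bulk cultures, so regions of a cluster that were bound in the same cells and regions bound in different cells cannot be told apart. Expression was not measured here, and the labelled stage was not checked against marker genes.

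HNF6 is the product of ONECUT1, a cut-domain homeodomain factor that acts in the early pancreatic epithelium upstream of the endocrine program and in the developing bile ducts. Its relatives ONECUT2 and ONECUT3 recognise similar DNA. GATA6, a zinc finger protein, is required for definitive endoderm and pancreas formation, and NKX6.1 is a homeodomain factor that marks multipotent pancreatic progenitors and later beta cells. Genes of developmental regulators are known to carry several enhancers close together, at which such factors bind side by side.

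Gene names are given here as background, from general knowledge of where genes lie on hg19, for some clusters that overlap or border a gene. A cluster given by position only may also lie at a gene. The names do not say whether a region lay in a promoter, exon, intron or untranslated region, which was not measured here. All positions are on hg19. The score is the authors' own value per peak, and it was used only within a list. A top-decile region is one in the highest decile of scores of the HNF6 day 10 list, from 392 upward.

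The cluster with the most members, 16 HNF6 regions in 35.1 kb at chr15:53072658-53107771, lay at ONECUT1, the gene of HNF6 itself. Those regions had scores from 13 to 1458 with a median of 257, and 7 of the 16 were top-decile regions. The strongest regions stood near the middle: the 9th had a score of 1342, the 11th 1458 and the 14th 1258, between 16.4 and 24.7 kb from the start of the cluster. GATA6 regions overlapped the 9th and the 12th HNF6 region, with GATA6 scores of 268 and 96. An NKX6.1 region with a score of 476 overlapped the first, which had an HNF6 score of 805. The largest number of neighbours in the whole list, 13, belonged to the 8th region of this cluster.

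The paralogs ONECUT2 and ONECUT3 each had a cluster of similar length. At ONECUT2, chr18:55095175-55131307, 12 HNF6 regions in 36.1 kb had scores from 25 to 1399, and 5 were top-decile regions. The 4 strongest, with scores of 987, 1366, 1047 and 1399, lay within the first 16.75 kb, and the 4 regions below the list's median had scores of 48, 25, 25 and 48. No listed GATA6, NKX6.1 or day 5 HNF6 region lay in the ONECUT2 cluster.

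At ONECUT3, chr19:1725173-1761829, 11 HNF6 regions in 36.7 kb included the highest score of the whole list, 4510, at chr19:1725173-1726300. That region stood at the start of the cluster, and the midpoint of the next lay 12.01 kb from that start. It overlapped a GATA6 region with a score of 279 and a day 5 HNF6 region. The other strong regions of the ONECUT3 cluster had scores of 815, 739, 3023 and 1792, and lay between 24.5 and 33.65 kb from its start. GATA6 overlapped the region with a score of 3023, and NKX6.1 the region with a score of 815.

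By number of HNF6 regions, the 3 ONECUT loci were among the 6 largest clusters, and by summed score they were the 3 highest, with 11706 at ONECUT3, 7552 at ONECUT1 and 5805 at ONECUT2. They held 39 HNF6 regions, of which 17 (43.6%) were top-decile regions, against 12.6% of all members. GATA6 overlapped 4 of the 39 (10.3%), near the 9.66% of all HNF6 regions of day 10 and below the 14.55% of all members, and on so few regions no difference can be read from this. The place of the ONECUT loci depended on the settings. With 25 kb in place of 12.5 kb, none of the 3 was among the 6 largest clusters and 1 was among the 6 highest summed scores. With HNF6 scores of at least 50, or with regions less than 1 kb apart merged, 2 were among the 6 largest. The surroundings of the 3 ONECUT clusters differed in these lists. Within 500 kb of the ONECUT1 cluster lay 4 other clusters with 18 members, among them one at chr15:53330054-53352133 with a highest score of 2739. The ONECUT2 cluster also had 4 others within 500 kb, with 21 members and a highest score of 1864. No other cluster lay within 1000 kb of the ONECUT3 cluster.

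**Figure D1:**
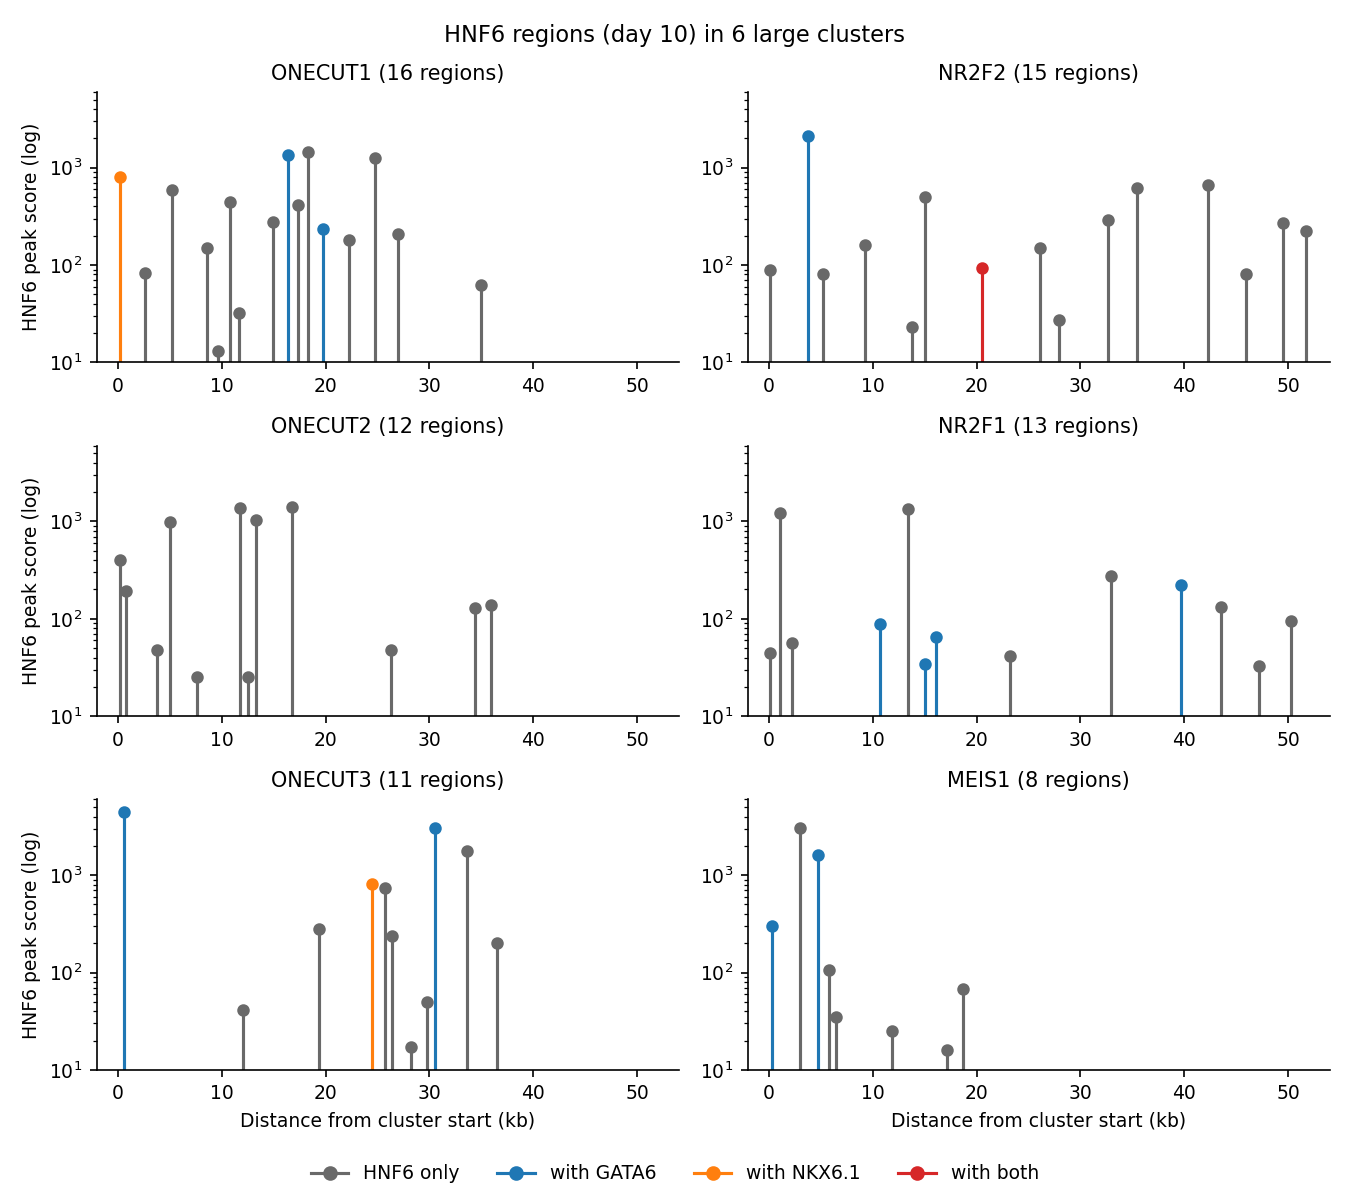
HNF6 regions of day 10 in 6 large clusters, at the ONECUT genes, NR2F2, NR2F1 and MEIS1. Each stem is 1 region, placed by its distance from the cluster's start (kb) and raised to its HNF6 score (log axis); colour gives the listed partners that overlap it. The ONECUT2 cluster has no partner region, and the ONECUT3 cluster holds the region with a score of 4510.

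Genes of nuclear receptors lay at other clusters among the 6 largest. NR2F2 encodes the orphan nuclear receptor COUP-TFII. Its cluster, chr15:96861968-96913807, held 15 HNF6 regions over 51.8 kb, the longest span of all clusters, with 4 top-decile regions and a highest score of 2108. The strongest region, the second from the start, overlapped a GATA6 region with a score of 53. The 7th, with an HNF6 score of 93, overlapped both GATA6 and NKX6.1. Of the 3 NKX6.1 regions in the NR2F2 cluster, 2 touched no HNF6 region.

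NR2F1, which encodes the related receptor COUP-TFI, lay at a cluster of 13 HNF6 regions, chr5:92902244-92952687, over 50.4 kb. Only 2 of the 13 were top-decile regions, with scores of 1232 and 1355, and neither overlapped a partner. The 4 HNF6 regions that overlapped GATA6 had HNF6 scores of 88, 34, 65 and 225. At ONECUT3, by contrast, GATA6 overlapped the 2 strongest HNF6 regions.

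Among the 20 largest clusters were further loci of transcription regulators, as well as loci of genes with other roles. MEIS1 and PBX3 encode TALE homeodomain factors that bind DNA together with other homeodomain proteins. The MEIS1 cluster, chr2:66657619-66676432, held 8 HNF6 regions in 18.8 kb, with 2 strong regions of scores 3056 and 1600 and a lowest of 16. The region with a score of 3056 was also listed for HNF6 at day 5, and its neighbours with scores of 297 and 1600 overlapped GATA6 regions with scores of 1080 and 328. The PBX3 cluster, chr9:128509643-128544170, held 10 HNF6 regions, none of them a top-decile region. Its highest score was 363, at the region that overlapped GATA6, and 7 of the 10 lay below the list's median.

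The zinc finger gene ZNF608 had 9 HNF6 regions in 23.8 kb, with a highest score of 2150, 2 GATA6 regions and 1 day 5 HNF6 region. CTNND2, a delta-catenin of cell junctions, had 10 in 44.3 kb, of which 1 was a top-decile region, with a score of 2232. SKIDA1 and MLLT10, neighbours of which the second encodes a chromatin factor, had 10 in 27.1 kb, with a highest score of 455. The netrin receptor gene UNC5C, the spectrin gene SPTBN1 and the vesicle fusion gene VTI1A had 9 each, with highest scores of 826, 581 and 575.

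Some of the 20 are given by position only. The cluster at chr18:26642691-26685218 held 10 HNF6 regions and 3 GATA6 regions, at HNF6 scores of 1118, 2003 and 305. The cluster at chr12:76145145-76164391 was the most compact of those with 10, at 19.25 kb. It had a highest score of 361, no GATA6 region and 1 NKX6.1 region that touched no HNF6 region. The 9 HNF6 regions at chr6:22744497-22770888 had a highest score of 1042 and 1 GATA6 region. Clusters of 9 at chr10:66109332-66139365, chr1:100024776-100053383 and chr2:139528970-139556640 held no top-decile region, with highest scores of 268, 235 and 236. They held 3, 2 and 2 GATA6 regions. Across the 20 largest clusters, 212 HNF6 regions lay in spans of 18.8 to 51.8 kb, and the highest score per cluster ranged from 235 to 4510. In 5 of the 20 there was no top-decile region, so a high number of regions did not require a strong one. Ranking by summed score in place of number retained 8 of the 20.

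GATA6 regions lay in 17 of the 20 largest clusters, 37 in all, NKX6.1 regions in 10, and both in 8. Over all 1874 clusters, most of them with fewer regions to overlap, the shares were 36.9%, 19.6% and 11.2%. Per member, the GATA6 share in clusters of 8 to 16 was 16.3%, against 14.55% of all members. Among all clusters, 4 held 4 GATA6 regions, the most of any. Among them were the NR2F1 cluster, a cluster of 6 HNF6 regions at chr17:79361371-79373729, and the FOXA2 cluster. FOXA2 encodes a forkhead pioneer factor of endoderm. At FOXA2, chr20:22539839-22566426, 7 members included a region with a score of 721 that overlapped GATA6, and GATA6 also overlapped members with scores of 173 and 43. The FOXA2 span held 1 NKX6.1 region, which touched no HNF6 region.

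HES1, a repressor driven by Notch signalling that keeps pancreatic progenitors undifferentiated, had 7 HNF6 regions at chr3:193848853-193868437. GATA6 overlapped 3 of them, whose HNF6 scores were 95, 2332 and 35. The polarity gene PARD3B had a short cluster of 4 in 8.43 kb at chr2:206158320-206166751. Its 3 strongest HNF6 regions, with scores of 734, 1101 and 1232, all overlapped GATA6. WDR7, in the neighbourhood of ONECUT2, had 8 HNF6 regions with a highest score of 1864, and GATA6 overlapped 3 others, with HNF6 scores of 268, 71 and 1106.

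NKX6.1 reached at most 3 regions per cluster, which 9 clusters held. One was NR2F2, described above, and the others were mostly small. UNC5C, chr4:96134073-96161706, held 9 HNF6 regions, and NKX6.1 overlapped those with scores of 826 and 116, which also overlapped GATA6. At the glutamate receptor gene GRIK1, 3 NKX6.1 regions and 2 GATA6 regions fell on 2 members, with HNF6 scores of 1295 and 162, in 1.12 kb at chr21:31159483-31160605. At MECOM, a zinc finger regulator gene, chr3:169375625-169386166, 1 of the 3 NKX6.1 regions overlapped an HNF6 region, with a score of 224. At the potassium channel gene KCND2, 3 NKX6.1 regions lay in a cluster of 5 members with no GATA6 region.

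Most clusters were much smaller than these. Single members made up 470 clusters, since a region can have 3 neighbours that each have fewer. There were 638 clusters of 4 members, 242 of 5 and 11 of 10 or more. The 1052 clusters with 4 or more members (56.1%) held 4961 of the 6240 regions and had a median span of 11.2 kb. Neighbouring midpoints inside a cluster were a median of 2.42 kb apart (quartiles 1.004 and 4.93 kb, 4366 intervals), and in 1431 of the intervals (32.8%) the edges were less than 1 kb apart. With HNF6 regions less than 1 kb apart merged first, 2725 members and 1058 clusters remained.

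Members had a median score near that of isolated regions but were more often top-decile regions. Their median score was 84 (quartiles 47 and 192) against 78 (48 and 162) for the 29188 isolated regions with 0 neighbours, and 12.6% against 9.10% were top-decile regions. Median width was 278 bp against 255 bp. At the edge of the rule, the 3992 regions with 3 neighbours had a median score of 86 and the 9390 regions with 2 neighbours 80. The 272 regions with 6 or more neighbours had a median score of 101.5 and a median width of 325.5 bp, and 22.4% were top-decile regions. More than 1 summit was listed for 3.49% of members and 1.69% of isolated regions.

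Within a cluster, scores were unequal. In the 1052 clusters of 4 or more, the highest score was a median of 3.36 times the cluster's median score (quartiles 1.975 and 6.51). In 480 of them (45.6%) at least 1 region was a top-decile region, and in 43 every member lay below the list's median. By construction the strongest of several regions exceeds their median, so this ratio is a description only.

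GATA6 overlapped a larger share of members than of isolated regions. Of the 6240 members, 908 overlapped a GATA6 region by at least 1 bp, which is 14.55% (13.7 to 15.45), against 9.66% of all HNF6 regions and 7.90% (7.60 to 8.22) of isolated regions. The share was 9.80% with 1 neighbour, 11.6% with 2, 14.4% with 3, 13.5% with 4, 17.3% with 5 and 16.9% with 6 or more. The intervals of the 3 groups below the rule were apart from each other, and those of the 4 groups that met it overlapped. Members held more strong regions, and GATA6 was listed more often at strong HNF6 regions. Within score deciles the odds ratio for members against isolated regions was 1.86 (1.70 to 2.03, Mantel-Haenszel), and within strata of both score and width it was 1.655 (1.51 to 1.81). The share was higher in members in 10 of 10 score deciles. In the lowest decile it was 9.74% (7.69 to 12.3) against 4.58% (3.84 to 5.46), and in the highest 42.6% (39.2 to 46.05) against 31.5% (29.75 to 33.3). The GATA6 list gave 6285 of 19404 peak numbers, and all 6285 listed regions touched an HNF6 region of day 10, so these shares hold for the listed GATA6 regions only.

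**Figure D2:**
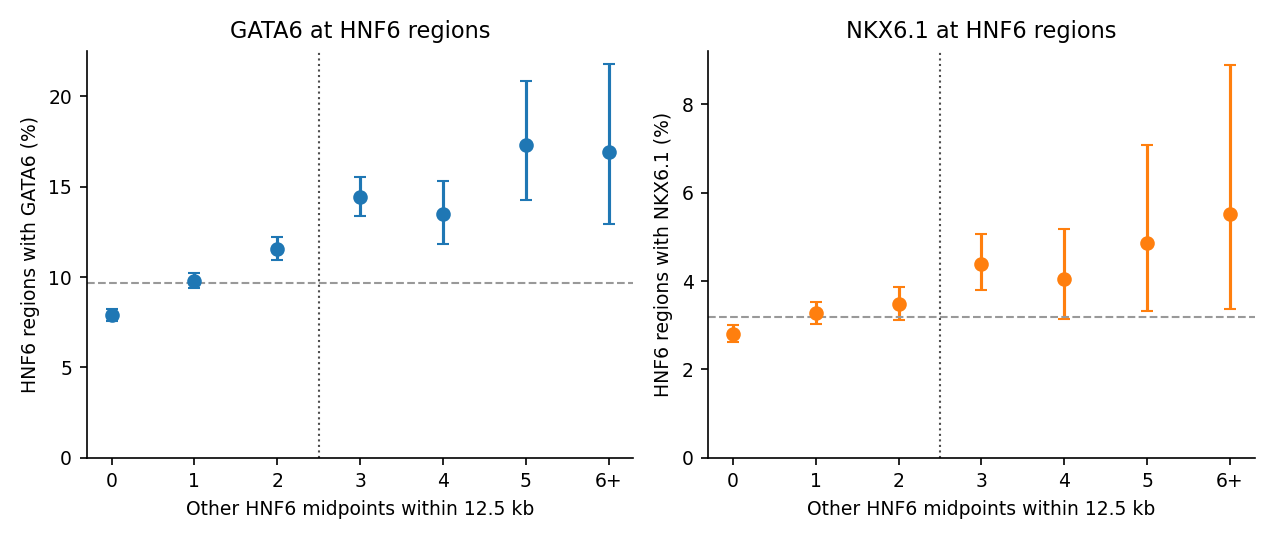
Share of HNF6 regions that overlap a GATA6 (left) or NKX6.1 (right) region, in percent, by the number of other HNF6 midpoints within 12.5 kb. Bars are Wilson 95% intervals, the dashed line is the share of all HNF6 regions (9.66% and 3.20%), and the dotted line marks the edge of the rule. GATA6 goes from 7.90% with 0 neighbours to 16.9% with 6 or more.

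NKX6.1, mapped 3 days later, also overlapped a larger share of members than of isolated regions. Its list is unlike that of GATA6, with a median width of 99 bp against 285 bp. Of the NKX6.1 list 14.3% touched an HNF6 region of day 10, against 100% of the GATA6 list. The size of the difference therefore cannot be ranked against that of GATA6. NKX6.1 overlapped 274 members, 4.39% (3.91 to 4.93), against 3.20% of all HNF6 regions and 2.80% (2.62 to 2.998) of isolated regions. The share was 3.27% with 1 neighbour, 3.47% with 2, 4.38% with 3 and 5.52% (3.37 to 8.90) with 6 or more. Within score deciles the odds ratio was 1.45 (1.26 to 1.67), and within strata of score and width 1.35 (1.165 to 1.55). Members had the higher share in 9 of 10 deciles, but the 2 intervals were apart in only 1, the highest, with 13.7% (11.5 to 16.3) against 9.605% (8.54 to 10.8). The highest decile spans scores from 392 to 4510, so score was held constant only loosely there. In the lowest decile the members' share was 1.24% against 1.49%. All 3 factors met at 134 members (2.15%) and 243 isolated regions (0.8325%). These shares were not stratified by HNF6 score, and both partners were listed more often at strong HNF6 regions. No difference due to density can be read from them.

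**Figure D3:**
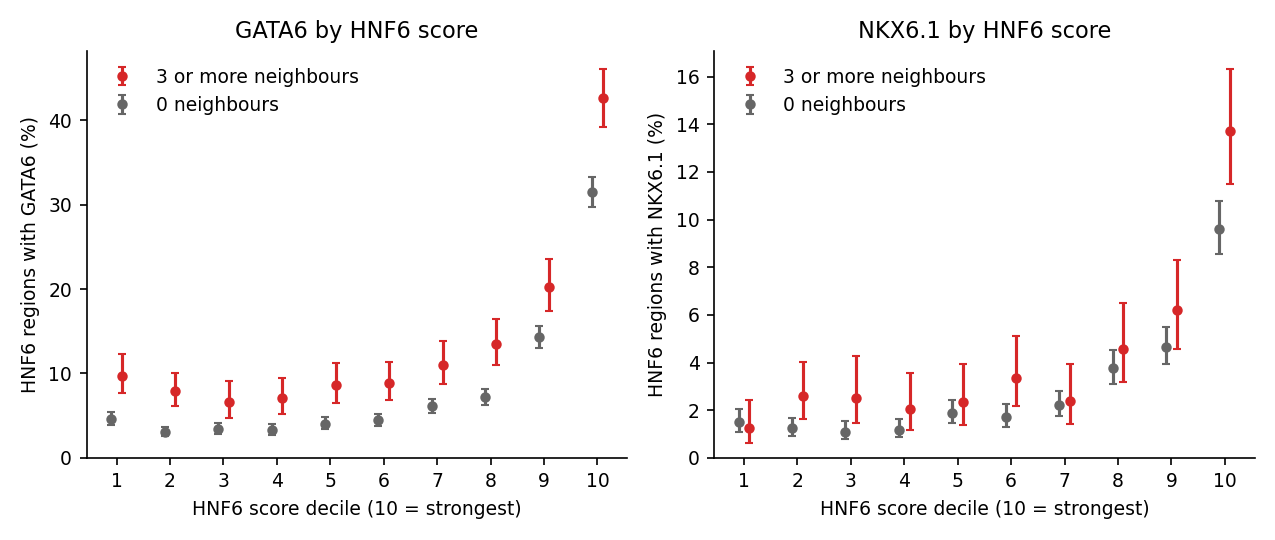
Share of HNF6 regions that overlap GATA6 (left) or NKX6.1 (right), in percent, by decile of HNF6 score, for members (3 or more neighbours, red) and isolated regions (0 neighbours, grey), with Wilson 95% intervals. For GATA6 the red points lie above the grey in 10 of 10 deciles; for NKX6.1 in 9 of 10.

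HNF6 at day 5 showed no such difference. It overlapped 20 members, 0.3205% (0.208 to 0.495), against 0.347% of all HNF6 regions of day 10. The odds ratio within score deciles was 0.729 (0.450 to 1.18), an interval that holds 1. With 250 regions in the day 5 list, a difference within this interval was not detectable. The 20 lay in 19 clusters, had a median day 10 score of 1616.5, and 14 were top-decile regions. After the ONECUT3 region, the highest day 10 scores among them were 3432 at chr5:139016764-139017630, which overlapped GATA6, and 3056 in the MEIS1 cluster.

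Larger clusters, which have more regions to overlap, held a partner more often. GATA6 was present in 12.55% of clusters of 1 member, 46.1% of those with 4, and 76.3% of those with 8 to 16, and NKX6.1 in 4.26%, 24.3% and 47.4%. Per member, the GATA6 share ranged from 11.75% to 16.3% across cluster sizes without a steady order, as the plot of partners by cluster size shows. In numbers, 692 clusters held GATA6, 368 held NKX6.1, 210 held both and 1024 (54.6%) held neither. The spans took in 909 GATA6 regions, 14.5% of that list, and 435 NKX6.1 regions, 2.97% of that list. These shares cannot be set against each other. All listed GATA6 regions touched an HNF6 region of day 10, but only 14.3% of the NKX6.1 list did. Members made up 9.61% of the HNF6 regions.

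**Figure D4:**
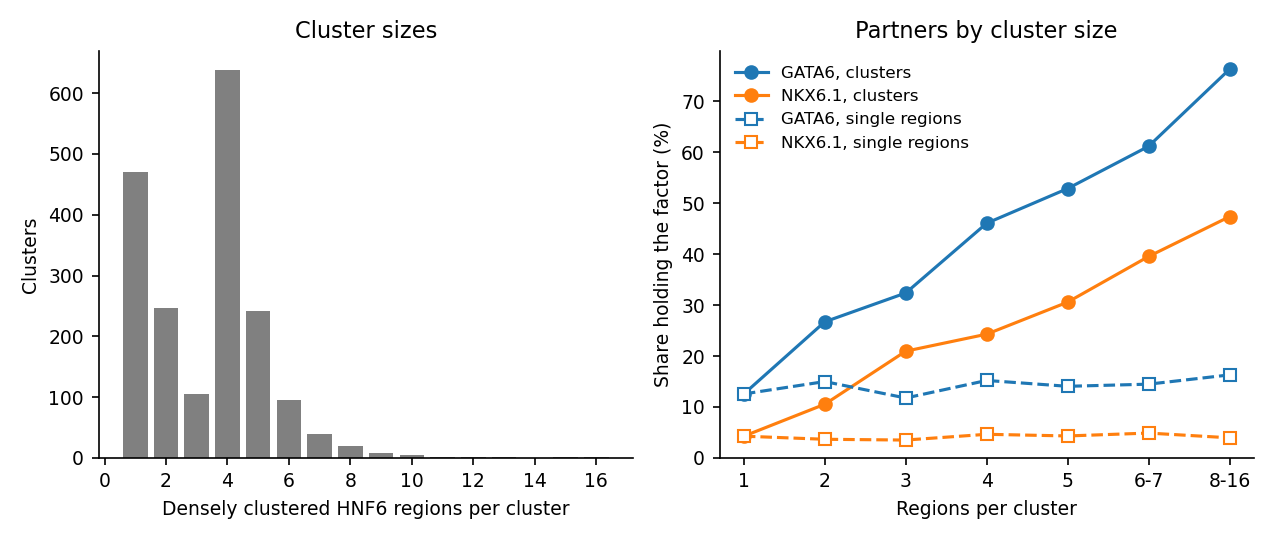
Left, number of clusters by number of densely clustered HNF6 regions they hold; right, share (percent) of clusters (filled) and of single members (open) that hold GATA6 or NKX6.1, by cluster size. The filled lines climb with size while the open lines stay between 11.75% and 16.3% for GATA6 and below 5% for NKX6.1.

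GATA6 was most frequent at the strongest HNF6 region of a cluster. In clusters of 4 or more members it overlapped 30.2% (27.5 to 33.1) of the strongest regions, 14.6% of the second, 9.89% of the third and 8.975% (7.74 to 10.4) of the rest. Their median HNF6 scores were 350, 132, 75 and 41, and their median widths 397, 305, 262 and 230 bp. Of the 531 such clusters with GATA6 at a member, 318 (59.9%) had it at the strongest. NKX6.1 overlapped 8.94% of the strongest and 2.38% of the fourth and below. The order within clusters thus ran along both HNF6 score and width, which were not separated within clusters.

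Whether a neighbour's partner went with a region's own was compared among members. A member with GATA6 at a neighbour within 12.5 kb had GATA6 itself in 15.6% (14.3 to 17.1) of 2555 cases, against 13.8% (12.7 to 14.96) of 3685 without. A single GATA6 region that covered both was not counted as a neighbour's. The odds ratio within score deciles was 1.22 (1.05 to 1.42). For HNF6 regions with 1 or 2 neighbours it was 1.03 (0.919 to 1.16). For NKX6.1 at members it was 0.890 (0.621 to 1.28), and for GATA6 beside a neighbour with NKX6.1 it was 0.841 (0.676 to 1.05), both intervals holding 1. None of these odds ratios was stratified by number of neighbours. A region with more neighbours has more chances of a partner at one of them, and the effect of this was not tested. Members that neighbour each other each entered as a case, which the intervals do not take into account.

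NKX6.1 regions that touched no HNF6 region were also more frequent inside the clusters. Of the 435 in the spans, 156 (35.9%) were of this kind, which is 11.9 per Mb (10.1 to 13.9) of span outside the HNF6 regions. Flanks as long as the cluster, on both sides, held 233 in 29.6 Mb, or 7.875 per Mb. The ratio was 1.51 (1.23 to 1.86, exact interval), and 1.62 (1.29 to 2.03) for clusters of 4 or more. Farther out the frequency was 8.84 per Mb up to 5 kb from the cluster edge, 6.65 between 20 and 50 kb and 5.86 (5.56 to 6.16) between 100 and 200 kb. This ratio depended on how clusters were defined: it was 0.867 (0.399 to 1.735) with a distance of 5 kb, 1.32 (0.685 to 2.46) with at least 5 neighbours and 1.29 (0.905 to 1.81) with HNF6 scores of at least 50. The same comparison was not possible for GATA6, since no listed GATA6 region lay outside HNF6 regions.

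**Figure D5:**
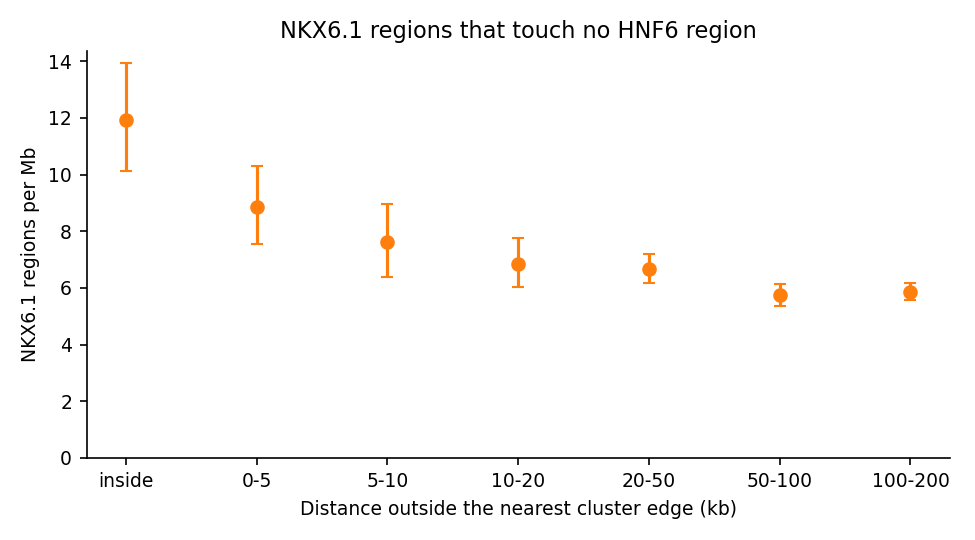
NKX6.1 regions of day 13 that touch no HNF6 region, per Mb of sequence outside HNF6 regions, inside clusters and by distance (kb) from the nearest cluster edge, with 95% Poisson intervals. The value is 11.9 per Mb inside and 5.86 per Mb at 100 to 200 kb.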

How the data were processed

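Peak lists of HNF6 (days 5 and 10), GATA6 (day 10) and NKX6.1 (day 13) were used, grouped by sample title. The authors deposited 1 list per library with a position and a score per peak, whose unit the sources used here do not give. Bowtie2 2.3.4.1, MACS2 2.1.1.20160309 and hg19 are named, without roles or settings, per the submitters' processing notes. Read depth is unknown from the lists, and a deeper library lists more weak regions, which can raise local density.

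Rows with the same coordinates were merged with the highest score, so that 66373 rows gave 64919 HNF6 day 10 regions, 6556 gave 6285 GATA6 regions, 14793 gave 14627 NKX6.1 regions and 255 gave 250 HNF6 day 5 regions. Overlap meant at least 1 bp. Shares carry Wilson 95% intervals and odds ratios were combined over deciles of HNF6 score by the Mantel-Haenszel method (Python 3.11.15, pandas 2.3.3, scipy 1.17.1, statsmodels 0.14.6). Neighbour counts and clusters were checked by direct counting on a single chromosome. The stratified odds ratio was run on simulated overlaps, and the other comparisons were not checked in this way.

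Clusters named are the 20 with most HNF6 regions (ties by summed score) and the 10 each with most GATA6 and NKX6.1 regions, 34 in all. Of these, 20 were given gene names from general knowledge of hg19. Not all of the other 14 are described, and 1 is not reported here. The 21 symbols lie on the same chromosome and within 3 Mb in a GRCh38 gene table, which was used for this check only. Members, lists and tests were chosen with earlier results of these data known. Alternatives varied the distance, the neighbours needed, the score minimum, merging, the overlap, the strata and the flanks.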

Additional observations from a re-analysis of the deposited data

How the results depend on the processing

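The number of members followed the rule. It was 1322 in 464 clusters with a distance of 5 kb, 16706 in 3964 with 25 kb, 786 in 217 with at least 5 neighbours, 2170 in 725 with HNF6 scores of at least 50, and 2725 in 1058 with regions less than 1 kb apart merged. With 25 kb, 0 of the ONECUT loci were among the 6 largest clusters and 1 among the 6 highest summed scores. With scores of at least 50, and with regions less than 1 kb apart merged, 2 were among the 6 largest. The GATA6 share of members was 17.5% (5 kb), 12.5% (25 kb), 17.2% (5 neighbours), 17.9% (scores of at least 50), 13.2% (overlap of 50% of the shorter region) and 12.95% (centres within 200 bp). The NKX6.1 share was 5.14% (5 kb), 5.09% (5 neighbours), 5.21% (scores of at least 50) and 3.88% (overlap of 50% of the shorter region). For the settings of distance and neighbours, the shares of all HNF6 regions remained 9.66% (GATA6) and 3.20% (NKX6.1). For the score minimum and the overlap settings they are not given, so no enrichment can be read from those shares. With scores of at least 50, the stratified odds ratios were 1.72 (GATA6) and 1.31 (NKX6.1). The score-stratified odds ratios for members against isolated regions stayed above 1 with their intervals in all alternatives run. They ran from 1.65 to 2.11 for GATA6 and from 1.25 to 1.58 for NKX6.1. Without strata the odds ratios were 1.985 (1.83 to 2.155) for GATA6 and 1.59 (1.385 to 1.83) for NKX6.1. The ratio of NKX6.1 regions without HNF6 in clusters against flanks turned to 0.867 with 5 kb, and its interval took in 1 at 1.32 with 5 neighbours and 1.29 with scores of at least 50. The cause was not tested. No paired analysis was possible because each factor and day had 1 library. Shares of clusters touching a gene and of sequence motifs were planned and not run, since no hg19 annotation or genome was used here. Each list rests on 1 library of unknown depth.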

Other observations

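The share of HNF6 regions that were densely clustered is given by chromosome as a description only. The rule used the positions of these same regions, so the share is bound to how frequent HNF6 regions were locally. Neighbouring regions met the rule together, which the intervals do not take into account. The share was highest on chromosome 13, at 14.1% (12.9 to 15.5), and chromosome 18, at 13.9% (12.5 to 15.4), and lowest among the autosomes on chromosome 19, at 5.22% (3.81 to 7.11). On chromosome X it was 2.63% (1.9 to 3.64). HNF6 regions of any kind numbered 24.7 per Mb on chromosome 13, 28 on chromosome 18, 12 on chromosome 19 and 8.58 on chromosome X, where the last position listed on a chromosome stood for its length. Chromosome 19 held 37 members, and its ONECUT3 cluster had the highest summed score of the genome. Neighbouring clusters were a median of 645.1 kb apart, and 273 of 1849 such intervals (14.8%) were under 100 kb.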
